A study of Mus musculus with 30 samples.

Results

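Epithelial cells were compared with the fibroblasts they had been grown with, in the vehicle cultures of a mouse lung organoid study. Every library labelled as vehicle was a member, 7 of the 30 libraries of the series. Of these, 4 held the Epcam+ fraction (mice 1, 2, 3 and 4) and 3 held the CCL206 fraction (mice 1, 3 and 4), so 3 mice gave both fractions. A CCL206 vehicle library of mouse 2 was not analysed here. The Epcam+ cells were freshly isolated with beads from the lungs of adult wild-type C57BL/6J mice, after cells bearing CD31 or CD45 had been removed. CCL206 is an established mouse lung fibroblast line, stopped from dividing with mitomycin C before use. All 3 fibroblast libraries therefore came from 1 line, and their mouse number names the epithelial donor in the same culture. The fractions were mixed in equal number in Matrigel, a basement membrane gel, and kept for 72 hours in organoid medium with vehicle and the ROCK inhibitor Y-27632. The cultures were then digested and passed over Epcam beads again, and the CCL206 fraction is whatever the beads did not hold. Cultures of the same design given a cocktail of exacerbation cytokines (EC), a cocktail made to mimic the fibrotic lung (IPFc) or TGF-β served here only as 11 further pairs of fractions. Replicates are separate mice for the Epcam+ libraries and separate co-cultures of the same line for the CCL206 libraries.

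In the distal lung, alveolar type 2 (AT2) cells make surfactant and act as progenitors of the flat alveolar type 1 (AT1) cells, while club, ciliated, goblet and basal cells line the airways. Fibroblasts beside them lay down collagen-rich matrix and are known sources of FGF7, FGF10, HGF, WNT ligands and BMP antagonists, which act on epithelial receptors. Epithelium in turn is known to signal to mesenchyme through ligands such as Sonic hedgehog, WNT7B and EGF family members.

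The read counts of the 7 libraries summed to between 12402492 and 20317181 in the Epcam+ fraction and to between 12710217 and 15606559 in the CCL206 fraction. Levels are given as CPM, counts scaled to the depth of the library, after TMM normalization, which evens out library composition. A gene was called where the adjusted p-value of the edgeR test was under 0.05 and the fold change was over 2, with mouse as a block. Positive log2 fold changes are higher in Epcam+ cells, and the error after ± is the standard error of the fit. Lists of levels run over mice 1, 2, 3 and 4 for Epcam+ libraries and over mice 1, 3 and 4 for CCL206 libraries. Of 18484 genes tested, 5755 were called (31.1%), 2499 higher in Epcam+ cells (13.5%) and 3256 higher in CCL206 cells (17.6%). The median log2 fold change of all genes tested was -0.02. Counts of list members called are to be read beside these shares. The first principal component of the 500 most variable genes held 93.7% of the variance and separated the fractions.

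Each fraction carried RNA typical of the other. Set against their level in the opposite fraction, reference fibroblast genes stood in the Epcam+ libraries of mice 1 to 4 at a median of 9.83%, 5.27%, 4.52% and 5.03% (mean 6.16% ± 2.47, SD, n = 4). Reference epithelial genes stood in the CCL206 libraries of mice 1, 3 and 4 at 16.6%, 15.7% and 30.9% (mean 21.1% ± 8.49, SD, n = 3). The CCL206 library of mouse 4 thus had the highest median of the 3. Every CCL206 library had a higher median than any Epcam+ library. These medians, called shares of the other fraction's RNA below, rest on the reference genes, and other gene lists gave other values. Where that RNA came from was not tested. In bulk libraries, fewer cells of a type and less RNA per cell cannot be told apart, so these describe RNA and not numbers of cells. RNA of the other fraction can limit the size of a fold. Since the shares differed, fold sizes toward Epcam+ cells and toward CCL206 cells are not on equal terms.

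The markers Epcam, Nkx2-1, Col1a1 and Pdgfra were each called in the direction of the label. Sftpc, chosen beforehand as an epithelial marker too, was not called (log2 fold change 0.52) and is described with the AT2 genes. Epcam, the adhesion molecule used for the sort, stood at 213, 219, 214 and 229 CPM in the Epcam+ libraries and at 30.0, 26.2 and 46.8 CPM in the CCL206 libraries (log2 fold change 2.72 ± 0.22). Since Epcam protein chose the cells, its transcript checks the sort and is no finding. Nkx2-1, the transcription factor of lung epithelium, stood at 201, 168, 238 and 203 CPM against 30.6, 46.8 and 86.4 CPM (log2 fold change 2.10 ± 0.22, adjusted p-value 4e-19). All libraries of the Epcam+ fraction lay above all libraries of the CCL206 fraction for both genes, and the CCL206 library of mouse 4 was the highest of its group. Col1a1, a chain of type I collagen, stood at 129.5, 70.5, 70.1 and 55.6 CPM in Epcam+ cells and at 1354, 1218 and 1413 CPM in CCL206 cells (log2 fold change -4.06 ± 0.23, adjusted p-value 3.2e-51). Pdgfra, the PDGF receptor typical of lung fibroblasts, stood at 26.6, 16.7, 12.9 and 20.6 CPM against 318, 374 and 336 CPM (log2 fold change -4.15 ± 0.23, adjusted p-value 1.9e-51). For both fibroblast genes the groups stood far apart, and the Epcam+ library of mouse 1 was the highest of its group. Of the 37 reference epithelial genes 33 were called higher in Epcam+ cells and none in CCL206 cells (median log2 fold change 2.40). All 30 of the reference fibroblast genes that were tested were called higher in CCL206 cells (median -4.03), and the other 4 stood under 1 CPM in both fractions.

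**Figure D1:**
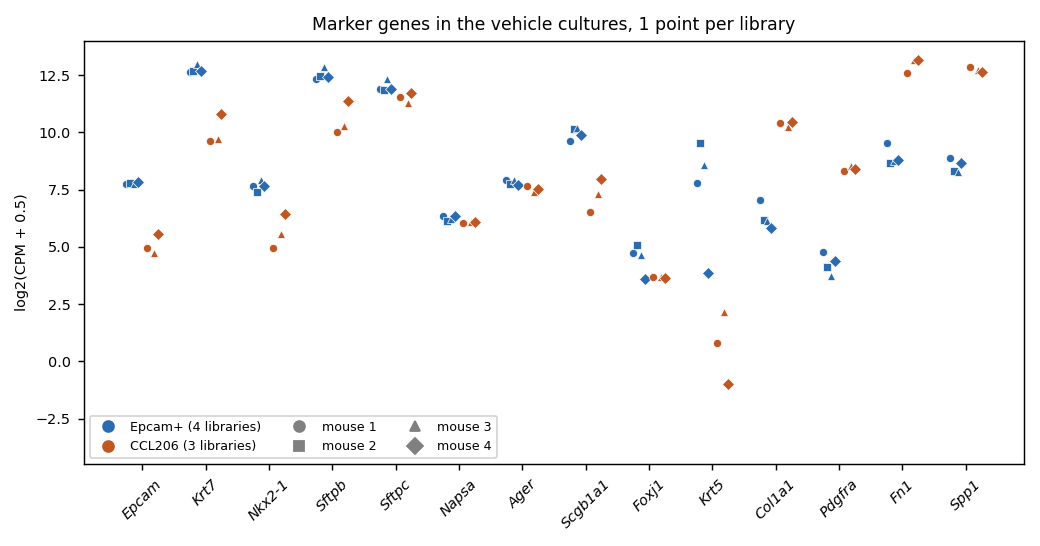
Level of 14 marker genes in each vehicle library, as log2(CPM + 0.5), with a point per library, a colour per fraction and a shape per mouse. Epcam, Krt7 and Nkx2-1 separate the fractions, as do Col1a1, Pdgfra, Fn1 and Spp1 in the reverse direction, whereas Sftpc, Napsa and Ager stand close together and Krt5 spreads widely among the Epcam+ libraries.

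The promoters of 5 genes on which the identity of the fractions turns are given here, to set their letters beside the expression difference. Each is the 200 bases before the start of the gene in the RefSeq annotation of build GRCm38.p6, read 5′ to 3′ on the strand of the gene. Capitals mark the E-box CACCTG or its reverse complement CAGGTG, letters known as a binding motif of the SNAI and ZEB repressors of epithelial genes. Sftpc and Col1a1 had no entry in the promoter table.
Epcam (chr17:87635779-87635978, + strand): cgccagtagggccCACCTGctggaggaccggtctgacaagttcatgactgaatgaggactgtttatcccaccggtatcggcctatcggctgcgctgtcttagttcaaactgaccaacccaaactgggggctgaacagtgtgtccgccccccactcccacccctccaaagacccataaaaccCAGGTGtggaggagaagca
Nkx2-1 (chr12:56536909-56537108, - strand): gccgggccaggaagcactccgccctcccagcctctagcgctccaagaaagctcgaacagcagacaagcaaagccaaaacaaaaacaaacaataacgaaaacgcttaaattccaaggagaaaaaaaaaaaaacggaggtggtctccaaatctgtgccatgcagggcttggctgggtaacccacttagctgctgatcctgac
Krt5 (chr15:101712906-101713105, - strand): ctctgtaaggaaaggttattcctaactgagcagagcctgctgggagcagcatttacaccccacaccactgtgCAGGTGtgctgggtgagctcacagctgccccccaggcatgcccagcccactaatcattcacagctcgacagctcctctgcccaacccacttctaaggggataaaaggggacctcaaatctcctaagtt
Pdgfra (chr5:75152051-75152250, + strand): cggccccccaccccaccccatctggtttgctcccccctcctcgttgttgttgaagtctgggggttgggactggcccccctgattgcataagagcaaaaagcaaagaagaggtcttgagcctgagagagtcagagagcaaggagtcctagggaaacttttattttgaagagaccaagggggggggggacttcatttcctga
Hgf (chr5:16553295-16553494, + strand): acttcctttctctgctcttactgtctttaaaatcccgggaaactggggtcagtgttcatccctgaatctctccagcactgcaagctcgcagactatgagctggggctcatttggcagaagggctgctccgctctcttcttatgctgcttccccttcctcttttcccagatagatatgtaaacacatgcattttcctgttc

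The Epcam promoter held the E-box letters at 187 and at 19 bases before the start, and the Krt5 promoter held them at 128 bases before it. The other 3 windows lacked them, which says only that these letters are not there. Over all genes called higher in Epcam+ cells, 528 of 2486 promoters of the same length held the E-box (21.2%). Among genes called higher in CCL206 cells 331 of 3233 did (10.2%). The share was 13.9% among all genes tested. It was also 13.9% among all 78285 genes of GENCODE on build GRCm39, the annotation from which the promoters in these shares were taken. With a log2 fold change over 2 the shares were 24.7% for Epcam+ cells and 10.5% for CCL206 cells. In the reference lists 14 of 37 epithelial promoters (37.8%) and 1 of 32 fibroblast promoters (3.13%) held it. The E-box was thus more frequent beside genes high in the epithelium, as a description of promoters with no test. Other motifs were searched on both strands in the same windows, and none contains the letters of another. The AP-1 motif TGANTCA lay in 5.43% and 5.32% of the promoters higher in Epcam+ and in CCL206 cells, the TATA box TATAAA in 7.48% and 7.45%, and CCAAT in 30.4% and 31.2%. The GRHL motif AACCNGTT lay in 1.37% and 1.05%, and the FOX motif TGTTTAC in 1.73% and 1.92%. Among all genes tested these shares were 4.39%, 7.14%, 30.9%, 1.37% and 1.88% in the same order. With a log2 fold change over 2, AP-1 lay in 7.32% and 6.16%, TATA in 9.44% and 8.7%, and CCAAT in 26.8% and 30.4%. GRHL then lay in 1.22% and 0.837% and FOX in 2.12% and 2.12%. In the epithelial and fibroblast reference lists AP-1 lay in 16.2% and 0%, TATA in 8.11% and 9.38%, and CCAAT in 24.3% and 34.4%. There GRHL lay in 5.41% and 0% and FOX in 8.11% and 3.13%, of 37 and 32 promoters. Median GC content was 57.5% in promoters higher in Epcam+ cells and 56.0% in those higher in CCL206 cells.

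Among the genes with a mean level over 100 CPM in the higher fraction, those with the largest called differences toward Epcam+ cells were Krt5, Krt15, Iqgap2, St8sia6, Krt4, Gabrp, Foxq1, Bpifa1, Lad1 and Crybg1. Krt5 and Krt15 are keratins of basal cells and are described with that cell type. Krt4, a keratin of non-ciliated airway cells, stood at 245, 203, 176 and 191 CPM in Epcam+ libraries and at 18.2, 14.5 and 32.2 CPM in CCL206 libraries (log2 fold change 3.30 ± 0.23). Gabrp, a subunit of a GABA receptor, stood at 207, 198, 176 and 201 CPM against 13.7, 21.1 and 33.3 CPM (log2 fold change 3.18 ± 0.23). Bpifa1, a secreted airway defence protein, stood at 361, 533, 341 and 211 CPM against 27.8, 40.3 and 41.0 CPM (log2 fold change 3.04 ± 0.22). None of these groups overlapped, and for Krt4 and Gabrp the CCL206 library of mouse 4 was again the highest of its group. Iqgap2, a scaffold protein, had a log2 fold change of 3.35 ± 0.24, the sialyltransferase St8sia6 3.31 ± 0.23, the transcription factor Foxq1 3.11 ± 0.23, the hemidesmosome-associated Lad1 3.01 ± 0.22 and Crybg1 3.00 ± 0.23. The value of Foxq1 was 3.74 without the libraries of mouse 4.

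Markers of the alveolar cell types separated the fractions less than general epithelial genes did. Among the 20 AT2 genes 10 were called higher in Epcam+ cells, none in CCL206 cells and 10 in neither (median log2 fold change 0.99). Sftpc, the surfactant protein typical of AT2 cells, stood at 3844, 3732, 5090.5 and 3766 CPM in Epcam+ cells and at 2961, 2520.2 and 3368 CPM in CCL206 cells (log2 fold change 0.52 ± 0.20, adjusted p-value 0.026). Its groups did not overlap, but the difference was under the fold limit and Sftpc was not called. Per kb of exon, Sftpc stood at 3961 CPM in Epcam+ cells and at 2844 CPM in CCL206 cells. Napsa, a protease that matures surfactant proteins, stood at 81.7, 69.9, 73.5 and 81.2 CPM against 66.1, 66.6 and 67.2 CPM (log2 fold change 0.24 ± 0.21, adjusted p-value 0.36). Lyz2, a lysozyme of AT2 cells and macrophages, stood at 59.3, 52.5, 63.6 and 66.7 CPM against 95.6, 76.2 and 61.9 CPM (log2 fold change -0.28 ± 0.21), with overlapping groups. Lamp3, a lysosomal membrane protein of lamellar bodies, stood at 148, 131, 136 and 228 CPM against 101, 109 and 72.6 CPM (log2 fold change 0.83 ± 0.21, adjusted p-value 0.0003), and was not called. Without the libraries of mouse 3 its value was 1.10 and it was called.

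Other surfactant genes were called. Sftpb, which spreads the surfactant film, stood at 5109.5, 5685, 7392 and 5534 CPM in Epcam+ cells and at 1040.1, 1252 and 2614 CPM in CCL206 cells (log2 fold change 1.99 ± 0.21, adjusted p-value 9.5e-18). The collectins Sftpd (1.81 ± 0.21) and Sftpa1 (1.71 ± 0.20) and the lipid transporter Abca3 (1.24 ± 0.20) had called log2 fold changes of the sizes given. Thus genes of the same cell type differed in how far they separated the fractions, with Sftpb, Sftpd and Sftpa1 nearer to Epcam than Sftpc, Napsa and Lyz2 were.

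AT1 genes gave 9 called higher in Epcam+ cells, 3 in CCL206 cells and 6 in neither of 18 (median 0.88). Ager, the receptor for glycation end products on AT1 cells, stood at 242, 211, 244 and 207 CPM against 202, 169 and 182 CPM (log2 fold change 0.32 ± 0.20, adjusted p-value 0.18). It lay higher in every Epcam+ library, by a difference that did not pass the test. Aqp5, a water channel of AT1 cells, stood at 1260.5, 1280.5, 1514 and 1208 CPM against 188, 208 and 429 CPM (log2 fold change 2.37 ± 0.21, adjusted p-value 6.3e-24) and separated the fractions about as Nkx2-1 did. Hopx, a homeodomain protein of AT1 cells, was called at 1.42 ± 0.24. Of 17 genes of the transitional state between AT2 and AT1 cells 12 were called higher in Epcam+ cells and none in CCL206 cells (median 2.01). The keratin Krt8, the usual marker of that state, stood at 2144, 2154, 2573 and 2409 CPM against 420.0, 374 and 683 CPM (log2 fold change 2.32 ± 0.21, adjusted p-value 1.2e-23). Krt7, another simple epithelial keratin, was called at 2.73 ± 0.22.

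The level in the CCL206 library as a percent of that in the Epcam+ library of the same mouse put these lists on 1 scale. For 30 general epithelial genes its median was 15.0%, 13.9% and 26.3% in mice 1, 3 and 4. For 19 AT2 genes it was 40.3%, 47.9% and 48.9%. For 12 AT1 genes it was 27.7%, 36.0% and 44.5%, and for 17 transitional genes 25.3%, 16.2% and 34.6%. AT2, AT1 and transitional genes stood above the general epithelial genes in all 3 vehicle pairs, and they did so in all 11 treated pairs too. These lists also held genes above their Epcam+ level. In mouse 1 the highest gene stood at 324% for AT1, 152% for transitional and 157% for AT2 genes, against 63.5% for general genes. The general list was not cleared of transitional genes, and these lists overlap: in mouse 3 the lowest gene of both stood at 9.629%. Their comparison is therefore not between fully separate sets of genes. Club cell genes had 12.2%, 15.8% and 22.6%, above the general genes in 1 of 3 vehicle pairs and in 1 of 11 treated pairs. The ciliated and goblet lists used genes from 1 CPM in Epcam+ cells and the others genes from 20 CPM. Ciliated genes ranged from 68.7% to 120.1% over the vehicle pairs and stood above the general genes in all 3 vehicle and all 11 treated pairs. The goblet list ranged from 5.71% to 25.2% and the basal list from 7.37% to 37.2% over the vehicle pairs. The general epithelial percent itself moved with treatment, from 0.878% to 3.62% in TGF-β pairs and from 31.7% to 51.9% in EC pairs, while the IPFc pairs (10.5% to 28.1%) overlapped the vehicle pairs. The part that cells with little surface Epcam, free RNA or broken cells had in the surfactant RNA of the CCL206 fraction was not tested.

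**Figure D2:**
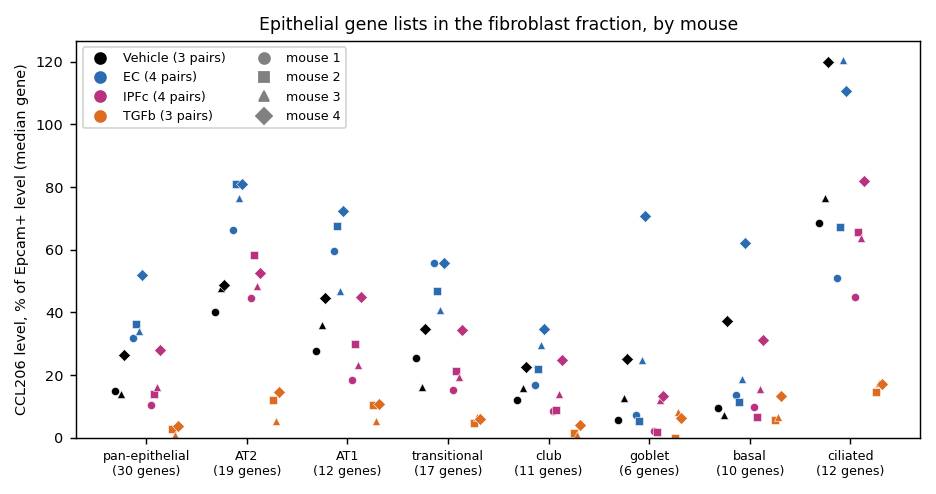
Level in the CCL206 library as a percent of the Epcam+ library of the same mouse, as the median over the genes of each cell type list, with a point per pair of fractions, a colour per treatment and a shape per mouse. AT2 genes (40.3% to 48.9% in the vehicle pairs) and ciliated genes (68.7% to 120.1%) lie above the general epithelial genes (13.9% to 26.3%).

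Airway genes fell into lists that did and did not separate the fractions. All 14 club cell genes were called higher in Epcam+ cells (median 2.49). Scgb1a1, the secretoglobin that defines club cells, stood at 784, 1118, 1176 and 938 CPM against 92.1, 159 and 245 CPM (log2 fold change 2.64 ± 0.21, adjusted p-value 1.3e-28). Of 11 goblet genes 8 were called higher in Epcam+ cells, and the mucin Muc5b stood at 104, 114, 76.4 and 30.4 CPM against 1.30, 5.79 and 7.21 CPM (log2 fold change 3.81 ± 0.27). The Muc5b value was 2.89 without mouse 1 and 4.77 without mouse 4, whose Epcam+ library had the lowest level, and robust estimation of the dispersion ended its call. Of 17 ciliated genes 3 were called higher in Epcam+ cells, 1 in CCL206 cells and 13 in neither (median 0.17). Of all genes tested 13.5% were called toward Epcam+ cells, and 5 of the ciliated genes stood under 1 CPM in both fractions. Foxj1, the master regulator of motile cilia, stood at 25.9, 33.7, 24.4 and 11.7 CPM against 12.3, 12.3 and 12.0 CPM (log2 fold change 0.68 ± 0.25), and the groups overlapped through the Epcam+ library of mouse 4. Without mouse 4 Foxj1 was called, at 1.07. Tubb4b, a tubulin of cilia also found in other cells, was called at 1.39 ± 0.20. Ccdc39, an assembly factor of ciliary dynein, was the ciliated gene called higher in CCL206 cells, at 2.09, 5.16, 1.86 and 2.33 CPM against 6.71, 12.2 and 6.04 CPM (log2 fold change -1.94 ± 0.36, adjusted p-value 9.7e-07).

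Basal cell genes ranged widely among mice. Of 13 genes 11 were called higher in Epcam+ cells and 1, the transcription factor Snai2, in CCL206 cells (median 2.97). Krt5, the keratin that defines basal cells, stood at 218, 737, 378 and 13.8 CPM in Epcam+ cells and at 1.22, 3.98 and 0 CPM in CCL206 cells (log2 fold change 7.02 ± 0.30). Trp63, the transcription factor of basal cells, stood at 7.64, 17.1, 13.3 and 1.4982 CPM against 0.0763, 0.827 and 0.715 CPM (log2 fold change 3.50 ± 0.44). Krt15 stood at 84.1, 178, 157 and 10.5 CPM against 2.90, 8.49 and 2.73 CPM (log2 fold change 3.78 ± 0.27). In all 3 genes the Epcam+ library of mouse 4 was far below those of the other mice. Krt14 stood at 33.0, 135, 52.4 and 0.0832 CPM against 0.305, 0.752 and 0 CPM (log2 fold change 6.32 ± 0.40) and Krt17 at 27.9, 106, 58.0 and 0.166 CPM against 0.229, 1.13 and 0.0650 CPM (log2 fold change 5.89 ± 0.39). For these keratins mouse 4 brought the groups to overlap. The water channel Aqp3 overlapped as well, at 71.9, 181, 118 and 6.58 CPM against 6.94, 5.41 and 4.22 CPM (log2 fold change 2.97 ± 0.27), with 2.12 without mouse 3 and 3.95 without mouse 4. Robust estimation of the dispersion ended the call of Aqp3, as did subtraction of the other fraction's RNA. Trp63 gave 2.74 without mouse 1 and 4.63 without mouse 4, and Krt15 4.52 without mouse 4. The basal cell receptor Ngfr stood at 6.22, 12.1, 10.9 and 0.416 CPM against 0, 0.15035 and 0 CPM (log2 fold change 6.66 ± 0.69), again low in mouse 4, with 6.08 without mouse 1 and 8.36 without mouse 3. Without mouse 3 the value of Krt5 was 7.64. The edgeR test drew its spread almost wholly from other genes (454 prior against 2 residual degrees of freedom), so the scatter of such a gene hardly entered its error. Fitted without the mouse block, where the prior degrees of freedom were 8.85, Krt5 kept its call with an adjusted p-value of 7.7e-05 and Krt14 with 0.00053.

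Against this epithelium stood a fibroblast fraction with a broad matrix programme. Genes with a mean over 100 CPM and the largest called differences toward CCL206 cells were Hgf, Mmp19, Mgp, Dcn, Col3a1, Colec12, Clip3, Dab2, Loxl1 and Gas1. Dcn, the proteoglycan decorin that binds collagen fibrils, stood at 9.53, 7.42, 6.32 and 6.58 CPM in Epcam+ cells and at 154, 189 and 133 CPM in CCL206 cells (log2 fold change -4.42 ± 0.24). Col3a1, the chain of type III collagen, stood at 65.7, 39.3, 32.2 and 32.3 CPM against 904, 864 and 785 CPM (log2 fold change -4.38 ± 0.23). Mgp, the inhibitor of calcification matrix Gla protein, stood at 8.85, 5.8036, 5.27 and 6.49 CPM against 189, 134 and 125 CPM (log2 fold change -4.45 ± 0.24). Groups did not overlap for any of these. Mmp19, a metalloproteinase, stood at 9.73, 9.35, 9.38 and 17.1 CPM against 151, 302 and 362 CPM (log2 fold change -4.46 ± 0.24). The scavenger receptor Colec12 (-4.36 ± 0.23), Clip3 (-4.35 ± 0.25), the endocytic adaptor Dab2 (-4.32 ± 0.24), the collagen cross-linking enzyme Loxl1 (-4.31 ± 0.24) and the surface protein Gas1 (-4.26 ± 0.25) had log2 fold changes of like size. These 10 differences, picked as the largest, lay close together, between -4.57 and -4.26. After subtraction of the other fraction's RNA the same genes spread from -9.32 (Hgf) to -16.66 (Col3a1). That subtraction brings genes near the subtracted share close to a count of 0 in Epcam+ libraries by construction. The spread after it therefore cannot show what set the size or order of these differences, which was not tested.

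**Figure D3:**
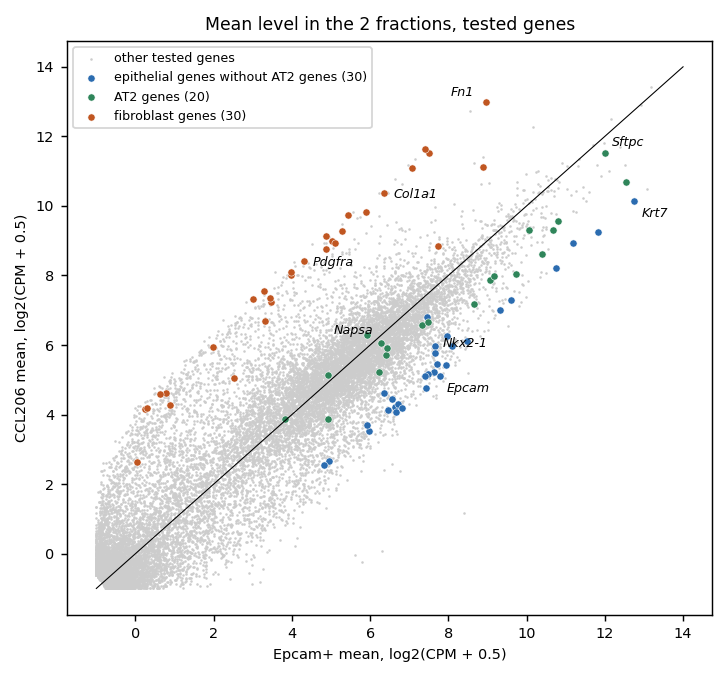
Mean level in Epcam+ cells (x axis) against mean level in CCL206 cells (y axis), both as log2(CPM + 0.5), for every gene tested, with the line of equal levels. The 30 fibroblast genes lie far above the line, the 30 epithelial genes without AT2 genes lie below it, and most of the 20 AT2 genes lie between the epithelial genes and the line, with Napsa and Sftpc near it and Lyz2, Hc and Egfl6 slightly above it.

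Of 17 fibrillar matrix genes tested 13 were called higher in CCL206 cells, 1 in Epcam+ cells and 3 in neither (median -3.88), against -0.02 over all genes. Fn1, the cell-adhesive matrix protein fibronectin, stood at 739.5, 403, 427 and 438 CPM against 6213, 9138 and 9225 CPM (log2 fold change -3.97 ± 0.23). Vim, the mesenchymal intermediate filament vimentin, stood at 229.8, 142, 130.5 and 176 CPM against 2948, 3068 and 3617 CPM (log2 fold change -4.20 ± 0.23). Spp1, the secreted phosphoprotein osteopontin, stood at 467, 313, 307 and 408 CPM against 7298, 6841 and 6414 CPM (log2 fold change -4.14 ± 0.23). Per kb of exon, Spp1 stood at 2410 CPM, Fn1 at 518 CPM and Col1a1 at 202 CPM in CCL206 cells. The proteoglycan Bgn was called at -4.03 ± 0.23.

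Contractile genes summed to between 1259 and 1400 CPM in CCL206 cells and to between 1000 and 1152 CPM in Epcam+ cells. Acta2, the smooth muscle actin of myofibroblasts, stood at 6.28, 5.64, 4.21 and 4.74 CPM in Epcam+ and at 54.0, 54.3 and 44.1 CPM in CCL206 libraries (log2 fold change -3.34 ± 0.26). Of 15 contractile genes tested 9 were called higher in CCL206 cells and none in Epcam+ cells (median -2.03). Tagln, an actin-binding protein of the same cells, was called at -3.07 ± 0.47, or -3.75 without mouse 4. Pi16, a marker of adventitial fibroblasts, stood at 2.30, 1.05, 1.45 and 2.58 CPM against 51.7, 42.9 and 44.6 CPM (log2 fold change -4.49 ± 0.28). Of 12 adventitial genes tested 7 were called higher in CCL206 cells, 1 in Epcam+ cells and 4 in neither (median -1.55). Itga8, an integrin of alveolar fibroblasts and smooth muscle, stood at 1.01, 1.77, 1.40 and 1.41 CPM against 31.5, 42.8 and 34.6 CPM (log2 fold change -4.83 ± 0.31). Its ligand nephronectin, Npnt, went the other way, at 116, 99.3, 110.5 and 133 CPM against 19.1, 18.6 and 23.7 CPM (log2 fold change 2.55 ± 0.22). Npnt and Pparg, the lipid-storage regulator (2.33 ± 0.25), are on the list of alveolar and lipofibroblast genes, which gave 5 called higher in Epcam+ cells and 4 in CCL206 cells of 12 tested. Several genes that mark lung fibroblasts in tissue were not detected or nearly so. Tcf21, Meox2 and Wnt2, genes of alveolar fibroblasts, had no read in any of the 7 libraries. The fibroblast surface marker Thy1 had 2 reads in the 4 Epcam+ libraries and 0 in the 3 CCL206 libraries, which allows up to 0.0718 CPM there. Counting limits of this kind cover counting error only.

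Markers of other cell types were scarce, within the depth of the libraries. Of 25 immune genes 18 stood under 1 CPM in both fractions, and Ptprc, which encodes CD45, had 5 reads in the Epcam+ and 17 reads in the CCL206 libraries. The immune genes summed to between 256.6 and 305.2 CPM in Epcam+ cells and to between 60.8 and 93.4 CPM in CCL206 cells. Most of that was Cd14, a lipopolysaccharide co-receptor that is not limited to immune cells, at 249.2 ± 25.1 CPM (SD, n = 4) against 51.8 ± 11.9 CPM (SD, n = 3). Of 18 endothelial genes 14 stood under 1 CPM, and Pecam1, which encodes CD31, had 10 and 12 reads. The endothelial list summed to between 21.2 and 26.3 CPM in Epcam+ cells and to between 22.3 and 27.0 CPM in CCL206 cells. Among pericyte and smooth muscle genes, which summed to 25.9 to 49.5 CPM and 243.7 to 340.5 CPM, Cspg4 was called at -3.91 ± 0.25 and Notch3 at -2.97 ± 0.23, both toward CCL206 cells, whereas Myh11 had 8 and 4 reads. Of the mesothelial list, Msln (2.16 ± 0.21) and Upk1b (2.76 ± 0.21) were called toward Epcam+ cells, but the defining genes Wt1 and Upk3b had 1 and 2 reads there. That list summed to between 4484 and 5395 CPM in Epcam+ cells, most of it Krt19, which simple epithelia share.

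Across the signalling families, 131 ligand genes and 121 receptor genes were tested. Of the ligands 34 were called higher in Epcam+ cells, 48 in CCL206 cells and 49 in neither (median log2 fold change -0.38). Of the receptors 24 were called higher in Epcam+ cells, 51 in CCL206 cells and 46 in neither (median -0.79). Both medians lay below that of all genes tested (-0.02), and the shares called were larger than the 31.1% of all genes. No set test was made.

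HGF and its receptor were on opposite sides. Hgf, the ligand that drives epithelial growth and motility, stood at 6.69, 3.14, 2.36 and 4.83 CPM in Epcam+ cells and at 105, 128 and 81.2 CPM in CCL206 cells (log2 fold change -4.57 ± 0.26, adjusted p-value 5.3e-50). Met, its receptor, stood at 213, 219, 218 and 271 CPM against 58.0, 76.2 and 89.1 CPM (log2 fold change 1.66 ± 0.21, adjusted p-value 7e-14). No CCL206 library reached the level of an Epcam+ library for Met, and the reverse held for Hgf. Among the FGF ligands, Fgf7, which stimulates epithelial growth, stood at 9.93, 5.88, 4.31 and 4.83 CPM against 97.2, 110.0 and 63.7 CPM (log2 fold change -3.88 ± 0.25). Fgf10, the ligand of lung branching, stood at 0.946, 1.13, 0.752 and 0.916 CPM against 21.6, 22.4 and 14.3 CPM (log2 fold change -4.47 ± 0.36). Fgf2 was called at -4.35 ± 0.28, or -3.75 without mouse 3. Per kb of exon, Fgf7 stood at 20.5 CPM, Hgf at 9.84 CPM, Fgf2 at 7.59 CPM and Fgf10 at 3.93 CPM in CCL206 cells. Fgf1 alone among the 6 FGF ligands tested was called toward Epcam+ cells, at 31.0, 32.9, 29.0 and 31.6 CPM against 12.2, 13.3 and 11.9 CPM (log2 fold change 1.29 ± 0.24). Of the receptors, Fgfr2, which binds FGF7 and FGF10, stood at 183, 173, 183 and 174 CPM against 52.7, 67.4 and 79.8 CPM (log2 fold change 1.45 ± 0.21). Fgfr3 followed it (2.23 ± 0.23), and Fgfr1 stood at 21.6, 17.1, 13.8 and 14.6 CPM against 165, 168 and 206 CPM (log2 fold change -3.45 ± 0.23). The receptors for the FGFs made by CCL206 cells thus stood on both sides.

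Of 10 EGF family ligands tested 3 were called higher in Epcam+ cells, 7 in neither and none in CCL206 cells. Tgfa, the ligand TGF-α, stood at 53.6, 51.2, 49.8 and 47.6 CPM against 6.02, 7.52 and 13.2 CPM (log2 fold change 2.56 ± 0.24, adjusted p-value 2.9e-22). Areg, the ligand amphiregulin, stood at 133, 143, 154 and 159 CPM against 34.7, 32.2 and 45.1 CPM (log2 fold change 2.00 ± 0.21, adjusted p-value 3.9e-18). Ereg, the ligand epiregulin, stood at 70.1, 59.2, 66.8 and 91.2 CPM against 89.9, 166 and 110.1 CPM (log2 fold change -0.65 ± 0.21), with overlapping groups, and was not called. Hbegf was not called either (0.76 ± 0.21), but was after subtraction of the other fraction's RNA (1.21). Per kb of exon, Areg stood at 120.6 CPM and Tgfa at 7.39 CPM in Epcam+ cells. Egfr, the receptor that binds all of these, stood at 20.7, 24.3, 17.5 and 11.5 CPM against 119, 191 and 155 CPM (log2 fold change -3.23 ± 0.23, adjusted p-value 1.4e-35), so it was called on the opposite side from Tgfa and Areg. Erbb3, a co-receptor for neuregulins, went toward Epcam+ cells, at 121, 113, 141 and 168 CPM against 20.2, 32.5 and 53.0 CPM (log2 fold change 2.11 ± 0.22). Erbb2, the partner without a ligand of its own, was not called (0.69 ± 0.21; 1.05 and called after the subtraction), and Erbb4 had no read in any library.

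WNT ligands were divided between the fractions, with 3 of 13 called higher in Epcam+ cells, 5 in CCL206 cells and 5 in neither. Wnt7b, a ligand of lung epithelium, stood at 167, 157, 192 and 181 CPM against 14.8, 19.0 and 43.3 CPM (log2 fold change 2.96 ± 0.23, adjusted p-value 1.1e-31). Wnt7a was called at 2.39 ± 0.23 and Wnt4 at 2.90 ± 0.30, or 3.59 without mouse 4. Wnt5a, a ligand of the non-canonical branch, stood at 8.99, 7.25, 5.57 and 5.16 CPM against 66.0, 74.7 and 60.6 CPM (log2 fold change -3.38 ± 0.25, adjusted p-value 4.1e-34). Wnt6 was also called toward CCL206 cells, at -4.41 ± 0.37, or -5.01 without mouse 1. Per kb of exon, Wnt7b stood at 34.0 CPM in Epcam+ cells and Wnt5a at 8.35 CPM in CCL206 cells. The R-spondins, which strengthen WNT signalling through LGR receptors, were low and toward CCL206 cells, Rspo3 at 0.608, 0.161, 0.0502 and 0.583 CPM against 15.6, 8.87 and 7.47 CPM (log2 fold change -4.82 ± 0.46) and Rspo2 at -4.70 ± 0.60. Without mouse 3 their values were -4.21 and -3.94. Among the receptors, Lgr5 stood at 4.39, 4.35, 5.97 and 7.66 CPM against 0.0763, 0.526 and 0.845 CPM (log2 fold change 3.72 ± 0.48), whereas Lgr4 was called toward CCL206 cells (-1.58 ± 0.25). Fzd5 (1.43 ± 0.23) and Fzd6 (1.72 ± 0.23) were called toward Epcam+ cells, and Fzd1 (-1.96 ± 0.22) and the WNT5A receptor Ror2 (-3.99 ± 0.31) toward CCL206 cells. Of 8 inhibitors 4 were called toward CCL206 cells and 2 toward Epcam+ cells, with Dkk3 at 10.9, 8.22, 4.61 and 7.66 CPM against 127, 144 and 128 CPM (log2 fold change -4.17 ± 0.25). The WNT effector Lef1 was called at -4.34 ± 0.43.

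The Hedgehog ligand lay toward the epithelium and most other genes of the pathway toward the fibroblasts. Shh, the ligand Sonic hedgehog, stood at 38.4, 43.0, 55.5 and 50.0 CPM against 7.63, 9.47 and 18.5 CPM (log2 fold change 2.09 ± 0.24, adjusted p-value 2.6e-16). Of the 12 genes of the family tested, 1 was called higher in Epcam+ cells and 8 in CCL206 cells. Gli1, a target of the pathway and the usual readout of its activity, stood at 1.15, 0.403, 0.953 and 0.250 CPM against 11.5, 22.3 and 26.2 CPM (log2 fold change -4.56 ± 0.37, adjusted p-value 3.4e-29). Its value was -5.25 without mouse 1 and -3.92 without mouse 4. The transducer Smo (-1.90 ± 0.21) and the effector Gli2, at 4.68 ± 1.43 CPM (SD, n = 4) against 83.0 ± 24.1 CPM (SD, n = 3), were also called toward CCL206 cells. Ptch1, which is both receptor and target, stood at 39.0, 38.6, 39.2 and 49.6 CPM against 26.5, 69.8 and 77.8 CPM (log2 fold change -0.32 ± 0.22), with overlapping groups, since the CCL206 library of mouse 1 lay below all Epcam+ libraries.

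All 10 BMP and activin ligands tested were called, 6 toward Epcam+ and 4 toward CCL206 cells. Bmp4, a ligand of the lung bud epithelium, stood at 85.3, 93.3, 99.7 and 73.2 CPM against 23.3, 19.4 and 26.4 CPM (log2 fold change 1.90 ± 0.22). Bmp5 was called at 2.07 ± 0.24. Inhba, the subunit of activin A, stood at 12.0, 12.9, 11.1 and 7.74 CPM against 67.4, 109 and 58.4 CPM (log2 fold change -2.91 ± 0.24), and Inhbb was called at -3.39 ± 0.23. Of 9 antagonists 6 were called toward CCL206 cells and none toward Epcam+ cells. Grem1, which binds and blocks BMPs, stood at 206, 114, 88.9 and 156 CPM against 2687, 2880.2 and 2258 CPM (log2 fold change -4.19 ± 0.23, adjusted p-value 9.7e-53). Per kb of exon, Grem1 stood at 627.5 CPM in CCL206 cells. Fst, the activin-binding follistatin, was called at -3.02 ± 0.25. Among receptors, Bmpr1b stood at 19.6, 17.6, 20.3 and 27.2 CPM against 0.839, 3.01 and 3.64 CPM (log2 fold change 3.26 ± 0.30). Acvr1b, a receptor of activins, was called at 1.07 ± 0.21, and its value of 0.86 without mouse 1 was under the fold limit. The BMP target Id3 was called at -3.35 ± 0.23.

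TGF-β ligands differed by isoform. Tgfb1 stood at 13.9, 15.7, 18.3 and 9.41 CPM against 51.8, 49.3 and 66.9 CPM (log2 fold change -2.03 ± 0.23). Tgfb2 stood at 33.0, 32.8, 38.2 and 43.4 CPM against 9.38, 11.6 and 13.4 CPM (log2 fold change 1.74 ± 0.24). Tgfb3 was not called (0.02 ± 0.21). Isoforms 1 and 2 were therefore called in opposite directions. The signalling receptors Tgfbr1 (0.99 ± 0.21) and Tgfbr2 (0.72 ± 0.20) were not called. Tgfbr1 lay just under the fold limit and was called without mouse 3 (1.26), with DESeq2 size factors or the DESeq2 test (1.00 in each), without a filter on low counts (1.03) and after subtraction of the other fraction's RNA (1.87). Tgfbr2 was called after that subtraction (1.11). The co-receptor Tgfbr3 stood at 22.1, 13.2, 8.48 and 14.6 CPM against 242, 287 and 246 CPM (log2 fold change -4.19 ± 0.24). Ltbp2, a matrix protein of the family that binds latent TGF-β, stood at 153, 79.7, 76.3 and 87.6 CPM against 1557, 1782 and 1949 CPM (log2 fold change -4.12 ± 0.23). Itgb6, part of the epithelial integrin that activates latent TGF-β, stood at 48.6, 52.9, 71.6 and 64.3 CPM against 9.53, 12.3 and 17.7 CPM (log2 fold change 2.25 ± 0.23). Of the 21 genes of the pathway tested 3 were called higher in Epcam+ cells and 11 in CCL206 cells.

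Of 6 Notch ligands tested 4 were called toward Epcam+ cells and none toward CCL206 cells. Jag1 stood at 44.0, 53.2, 47.7 and 38.0 CPM against 11.4, 16.6 and 21.2 CPM (log2 fold change 1.43 ± 0.23), and Jag2 was called at 2.45 ± 0.29, or 3.09 without mouse 4. Notch1 was called toward Epcam+ cells (1.18 ± 0.22). Notch3, the receptor of mural and mesenchymal cells, stood at 27.2, 21.8, 20.7 and 12.0 CPM against 117, 158 and 183 CPM (log2 fold change -2.97 ± 0.23). The Notch target Nrarp was called toward Epcam+ cells, at 3.48 ± 0.33, or 4.16 without mouse 4.

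Of 16 PDGF and VEGF genes tested 10 were called toward CCL206 cells and 1 toward Epcam+ cells. Pdgfa, the main ligand of PDGFRA, stood at 27.5, 28.6, 36.4 and 21.6 CPM against 69.9, 46.8 and 56.6 CPM (log2 fold change -1.03 ± 0.22, adjusted p-value 2.2e-05). It was at the fold limit and lost its call without mouse 1 (-0.87), without mouse 4 (-0.81) and without a filter on low counts (-0.99). Pdgfc (-2.29 ± 0.24) and the receptor Pdgfrb (-4.25 ± 0.27) were called toward CCL206 cells. Vegfa, the endothelial growth factor, stood at 82.8, 74.3, 80.2 and 70.2 CPM against 183, 239.9 and 226 CPM (log2 fold change -1.47 ± 0.21). Igf1, a growth factor of stromal cells, stood at 0.135, 0.322, 0.10032 and 0.749 CPM against 7.32, 7.82 and 5.91 CPM (log2 fold change -4.62 ± 0.53), with -4.02 without mouse 3 and -5.89 without mouse 4. Of 13 IGF genes tested 5 were called toward CCL206 and 2 toward Epcam+ cells, beside 17.6% and 13.5% of all genes tested.

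**Figure D4:**
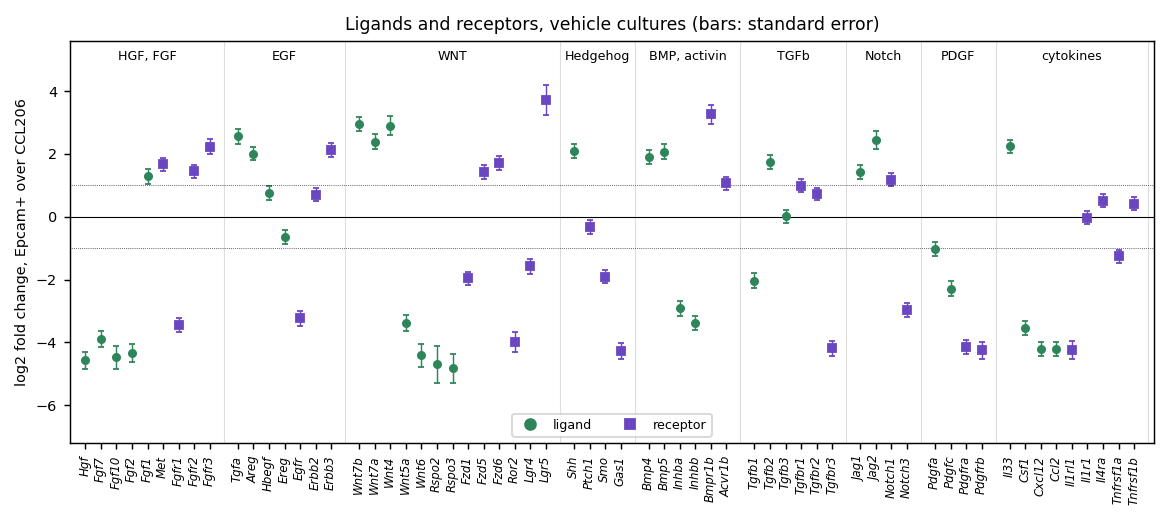
Log2 fold change of Epcam+ over CCL206 cells for the ligands (circles) and receptors (squares) named in the text, by family, with bars of 1 standard error and dotted lines at the fold limit of 2. Hgf, Fgf7 and Fgf10 lie below -3.5 with Met and Fgfr2 above 1, and Tgfa and Areg lie at 2 or above with Egfr below -3.

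Of the receptors for the interleukins, TNF and the other factors used as treatments in the series, 22 were tested, with 10 called toward CCL206 cells, 3 toward Epcam+ cells and 9 in neither. Il33, an alarmin stored in nuclei, stood at 166, 145, 123 and 202 CPM against 33.1, 35.2 and 33.9 CPM (log2 fold change 2.24 ± 0.22, adjusted p-value 1.8e-21). Il1rl1, its receptor ST2, stood at 3.38, 1.85, 1.71 and 2.25 CPM against 36.8, 55.9 and 43.5 CPM (log2 fold change -4.23 ± 0.28, adjusted p-value 3.1e-39). The ligand and the receptor were thus called on opposite sides. Il1r1, the receptor of IL-1, stood at 51.8, 50.3, 46.8 and 60.7 CPM against 48.7, 58.4 and 54.5 CPM (log2 fold change -0.02 ± 0.21), with overlapping groups. The TNF receptor Tnfrsf1a was called toward CCL206 cells (-1.26 ± 0.20) and Tnfrsf1b was not called (0.41 ± 0.21). The IL-6 receptor Il6ra (-1.40 ± 0.23), the IL-13 receptor chain Il13ra1 (-1.35 ± 0.21), Crlf2 of the TSLP receptor (-3.05 ± 0.26) and the oncostatin M receptor Osmr (-2.47 ± 0.22) were called toward CCL206 cells, and Il4ra was not called (0.51 ± 0.20). Il1b and Il13 had no read in any library.

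Chemokines and colony-stimulating factors were split as well, with 6 of 18 chemokine ligands called toward Epcam+ and 7 toward CCL206 cells. Csf1, the macrophage growth factor, stood at 41.2, 27.9, 21.8 and 36.3 CPM against 272, 323 and 572 CPM (log2 fold change -3.53 ± 0.23). Cxcl12, a stromal chemokine, stood at 57.9, 33.5, 25.7 and 37.3 CPM against 809, 711 and 625 CPM (log2 fold change -4.22 ± 0.23). Ccl2, which draws monocytes, stood at 10.5, 10.5, 12.8 and 30.9 CPM against 175, 285 and 535 CPM (log2 fold change -4.21 ± 0.23). Cxcl1, which draws neutrophils, stood at 6.28, 13.0, 18.7 and 45.2 CPM against 46.8, 197 and 496 CPM (log2 fold change -3.27 ± 0.23), and its CCL206 library of mouse 1 hardly exceeded the Epcam+ library of mouse 4. Both Ccl2 and Cxcl1 were highest in mouse 4 in each fraction. Cxcl15, a chemokine of lung epithelium, stood at 1434, 1490.1, 1431 and 2129 CPM against 594, 648 and 657 CPM (log2 fold change 1.37 ± 0.20), a call that subtraction of the other fraction's RNA ended. Cxcl16 was called at 2.04 ± 0.22.

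Adhesion to matrix also divided the fractions. Of 19 integrin genes tested 6 were called on each side. Itga2, a collagen receptor chain, stood at 438, 418, 551 and 646 CPM against 54.1, 93.8 and 111 CPM (log2 fold change 2.70 ± 0.21). The laminin receptor chain Itga3 was called at 2.73 ± 0.22. Itga5, the fibronectin receptor chain, stood at 25.5, 22.7, 22.1 and 25.8 CPM against 213, 294 and 455 CPM (log2 fold change -3.64 ± 0.23). Among 23 basement membrane genes 7 were called toward Epcam+ cells, 10 toward CCL206 cells and 6 in neither. Nid1, which links laminin and type IV collagen, stood at 97.4, 65.8, 53.1 and 80.7 CPM against 1064, 1489 and 1419 CPM (log2 fold change -4.13 ± 0.23). Col4a1, a chain of type IV collagen, was not called (-0.49 ± 0.20). Of the retinoic acid synthesis genes, 3 of 4 were called toward Epcam+ cells, among them Aldh1a1 at 344 ± 44.7 CPM (SD, n = 4) against 74.6 ± 11.6 CPM (SD, n = 3, log2 fold change 2.19 ± 0.21).

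Among further factors, Edn1, the peptide endothelin 1, stood at 17.4, 26.7, 30.5 and 61.2 CPM against 3.05, 6.39 and 17.0 CPM (log2 fold change 2.18 ± 0.25). Its receptor Ednra stood at 1.08, 0.242, 0.201 and 0.583 CPM against 18.4, 18.6 and 13.6 CPM (log2 fold change -4.87 ± 0.39), or -4.27 without mouse 3. Artn, the neurotrophic factor artemin, stood at 33.8, 27.8, 27.0 and 22.6 CPM against 2.14, 3.01 and 6.43 CPM (log2 fold change 2.92 ± 0.28), or 3.59 without mouse 4. Artn and its signalling receptor Ret (2.31 ± 0.29) were both called toward Epcam+ cells. The guidance ligand Sema3e (2.78 ± 0.24) and the ephrin receptor Epha2 (2.23 ± 0.21) were called toward Epcam+ cells, and Slit2 (-2.87 ± 0.22), the neurotrophin Bdnf (-4.29 ± 0.27) and the receptor Axl (-3.31 ± 0.22) toward CCL206 cells.

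The calls were then read over 122 known pairs of a ligand and a receptor, of which 81 had both genes at 1 CPM or more in a fraction and 41 had a gene under 1 CPM in both. In 10 pairs the ligand was called toward CCL206 cells and the receptor toward Epcam+ cells. These were Hgf with Met, Fgf7 and Fgf10 with Fgfr2, Wnt5a with Fzd5, Inhba with Acvr1b, Vegfc with Flt4, Ptn with Ptprz1, Tnc with Itga9, and Col1a1 with Itga1 and with Itga2. In another 10 pairs the ligand was called toward Epcam+ cells and the receptor toward CCL206 cells. These were Tgfa and Areg with Egfr, Wnt7b with Fzd1, Jag1 with Notch3, Tgfb2 with Tgfbr3, Tnf with Tnfrsf1a, Il33 with Il1rl1, Sema3e with Plxnd1, Edn1 with Ednra, and Npnt with Itga8. Tnf itself was close to the detection line, at a mean of 1.645 CPM in Epcam+ and 0.7332 CPM in CCL206 cells (log2 fold change 1.77 ± 0.67). In 20 pairs both genes were called toward CCL206 cells, among them Fgf2 with Fgfr1, Wnt5a with Ror2, Pdgfc with Pdgfra and Fn1 with Itga5. In 7 pairs both were called toward Epcam+ cells, among them Fgf1 with Fgfr2, Jag1 with Notch1 and Bmp5 with Bmpr1b. Of the remaining detected pairs, 8 had only the ligand called toward Epcam+ cells and 7 only the ligand toward CCL206 cells. The receptor alone was called toward Epcam+ cells in 5 and toward CCL206 cells in 12, and neither gene in 2. Of all genes tested 13.5% were called toward Epcam+ and 17.6% toward CCL206 cells. The pair numbers were not set against what the called shares of ligands and receptors alone would give. Pairs share genes, and transcript levels say nothing of secretion or binding. Tested against a fold of 2 itself, the pairs within CCL206 cells numbered 11 and those within Epcam+ cells 4. By that rule 7 pairs had a CCL206 ligand with an Epcam+ receptor, and 9 had the reverse.

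**Figure D5:**
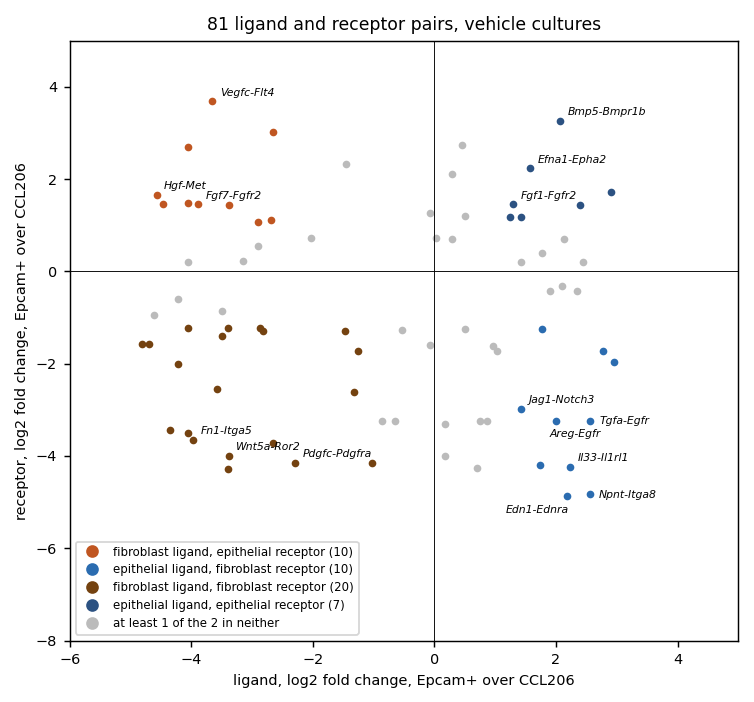
Log2 fold change of the ligand (x axis) against that of its receptor (y axis), Epcam+ over CCL206 cells, for the 81 pairs with both genes detected, coloured by which fractions the calls favour. The upper left quadrant holds the 10 pairs from fibroblast to epithelium and the lower right the 10 in the reverse direction.

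Some ligands called toward Epcam+ cells were nonetheless read in CCL206 libraries, and their level there was set beside that of general epithelial genes. The 27 such ligands at 5 CPM or more stood in CCL206 cells at a median of 22.4% of their Epcam+ level, and the 22 receptors so called at a median of 19.4%. The fold limit of the call holds such values low, so they are a description of the genes called. Tgfa stood in CCL206 cells at 10.9%, 14.3% and 26.3% of its Epcam+ level in mice 1, 3 and 4, close to the general medians of 15.0%, 13.9% and 26.3%. Areg stood at 25.3%, 19.9% and 26.9%, and Il33 at 19.4%, 27.1% and 15.9%. Artn stood at 6.14%, 10.6% and 27.0%. Pthlh, the parathyroid hormone-related peptide, stood at 38.4, 34.0, 34.1 and 31.9 CPM against 3.51, 1.35 and 4.81 CPM (log2 fold change 3.51 ± 0.28), with 8.88%, 3.76% and 14.3%. Ptn, the heparin-binding growth factor pleiotrophin, went the other way, at 5.68, 8.06, 5.62 and 1.41 CPM against 32.1, 21.6 and 20.6 CPM (log2 fold change -2.65 ± 0.29), with 549.7%, 365% and 1384%. Pthlh and Ptn were added after their values were seen. In the reverse direction, 44 ligands called toward CCL206 cells stood in Epcam+ cells at a median of 12.4% of their CCL206 level. Whether the epithelial ligand reads in CCL206 libraries came from fibroblasts or from epithelial RNA was not tested.

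Proliferation genes separated the fractions, in which the fibroblasts had been stopped from dividing. Of 40 such genes 28 were called higher in Epcam+ cells and none in CCL206 cells (median 1.16). Mki67, the antigen of cycling cells, stood at 696, 704, 720.2 and 734 CPM against 165, 198 and 241 CPM (log2 fold change 1.85 ± 0.21, adjusted p-value 8.7e-17). The CCL206 library of mouse 4 had the highest Mki67 level of its group. Whether the Mki67 reads in CCL206 libraries came from fibroblasts or from epithelial RNA was not tested. The mitotic genes Plk1 (2.02 ± 0.21) and Cdc20 (2.21 ± 0.21) and the replication gene Mcm5 (1.52 ± 0.20) were called in the same direction. Of 29 p53 target genes 9 were called toward CCL206 cells, 3 toward Epcam+ cells and 17 in neither (median -0.64). Of all genes tested 17.6% and 13.5% were called in these directions. Mdm2, the ubiquitin ligase that p53 induces, stood at 177, 161, 155 and 248 CPM against 476, 490.4 and 491 CPM (log2 fold change -1.36 ± 0.20, adjusted p-value 5.1e-10). Cdkn1a, the cell cycle inhibitor p21, stood at 258, 237, 251 and 279.7 CPM against 404, 371 and 579 CPM (log2 fold change -0.75 ± 0.20) and was not called, and Eda2r was called at -2.73 ± 0.23. Perp, a p53 target that is also part of epithelial junctions, was called toward Epcam+ cells (2.92 ± 0.23).

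The direction of the vehicle difference was read in the 11 pairs of treated cultures, which the fit did not use. Of the 58 ligands and receptors called toward Epcam+ cells 45 lay higher in the Epcam+ library in all 11 pairs (77.6%), against 1816 of all 2499 genes so called (72.7%). Of the 99 called toward CCL206 cells 85 lay higher in the CCL206 library in all 11 pairs (85.9%), against 2372 of 3256 (72.9%). Treated pairs came from the same mice and the same line, so they are further cultures and not further donors. Among genes named here, Abca3, Ngfr, Aqp3, Acvr1b, Jag2, Notch1, Flt4 and Cxcl1 kept the vehicle direction in 10 of 11 treated pairs and Il13ra1 in 9. Ccdc39 kept it in 7 and lay higher in the Epcam+ library in 4.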

How the data were processed

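Bulk RNA sequencing libraries (NEBNext Ultra II Directional kit, NovaSeq) were read from the deposited tables, which hold a raw read count per gene for 55487 genes. The authors trimmed reads with Trimmomatic 0.30 per the labels. The labels name build GRCm39 and the methods GRCm38 patch 6, and the aligner, the counter and its strand setting are not given in the sources used here, so overlapping and antisense genes are uncertain. The authors analysed the counts with DESeq2 1.34.0 in a paired design. Here genes with a mean raw count under 1 over the 7 libraries were dropped, and edgeR 4.0.16 (R 4.3.3) fitted a quasi-likelihood model with mouse and fraction as terms after TMM scaling, with Benjamini-Hochberg adjustment over all 18484 genes. Mouse 2 has 1 library, so the difference rests on 3 mice. The labels give the mouse number, and libraries of the same mouse deviated together little (correlation of deviations 0.077, -0.066 and -0.068 in mice 1, 3 and 4). Depth allows a count of 0 over a group to exclude levels above 0.0507 CPM in Epcam+ and 0.0718 CPM in CCL206 cells, as 3 counts. The share of the other fraction's RNA is the median, over reference genes from 50 CPM, of the level in a library relative to the opposite fraction of the same mouse or, for mouse 2, the mean of the CCL206 libraries. Named genes were the 10 with the largest called change on each side from 100 CPM, list members from 5 CPM, and genes of stated absence. The comparison, gene lists and pairs were chosen with earlier results of these data known. Some items are not reported here. Promoters came from RefSeq and GENCODE annotations. The fit was tested on simulated data. Alternatives were other normalizations and tests (DESeq2 1.42.0, limma 3.58.1), filters, no block, leaving out each mouse, and subtraction of the other fraction's RNA.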

Additional observations from a re-analysis of the deposited data

Results flagged for a closer look

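Among the 4 Epcam+ vehicle libraries, 170 values were examined for a library far from the other 3, and 19 passed Dixon's critical value for 4 samples, where chance flags about 1 in 20. The Epcam+ library of mouse 4 stood highest for St8sia6 (244 CPM), Mmp19 (17.1 CPM), Lamp3 (228 CPM), Met (271 CPM), Ptch1 (49.6 CPM), Ccl2 (30.9 CPM), Cxcl15 (2130 CPM) and Sema3e (75.7 CPM), and lowest for Notch1 (49.4 CPM). The library of mouse 1 stood highest for the fibroblast genes Clip3 (8.65 CPM), Loxl1 (13.4 CPM), Fn1 (740 CPM) and Ltbp2 (153 CPM), and for the share of fibroblast RNA (9.83%, against 4.51% to 5.27% in the others). Whether that share set those levels was not tested. The library of mouse 3 stood highest for Sftpc (5090 CPM, against 3730 to 3840 CPM) and Krt7 (8110 CPM), and lowest for Iqgap2 (94.7 CPM). The library of mouse 2 stood highest for Ccdc39 (5.16 CPM) and lowest for Id3 (13.1 CPM).

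Ccdc39, the ciliary gene called higher in CCL206 cells, had a log2 difference between Epcam+ and CCL206 libraries of -1.65 on average over the 3 vehicle pairs (-2.36 to -1.14). In the 3 TGF-β pairs it was 0.58 on average (0.49 to 0.74). Every pair of each group lay on its own side of 0, and the difference between the treatments was not tested.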

How the results depend on the processing

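The number of genes called lay within 1.5 times the 5755 reported under most of the 15 alternatives. Tested against a fold of 2 itself, 3771 genes were called, 1505 of them higher in Epcam+ cells. The pairs of ligand and receptor within CCL206 cells were then 11 and within Epcam+ cells 4. Pairs with a CCL206 ligand and an Epcam+ receptor were 7, and those in reverse 9. Without the fold limit 8514 genes were called, 4024 of them higher in Epcam+ cells; these are stricter and looser rules on the same fit. Leaving out each mouse in turn gave 4780 to 5750 calls. Without the replicate block, 6320 genes were called, of which 5591 were among the genes called with it, and no named gene changed its call. The mouse numbers come from the labels, but libraries of the same mouse hardly deviated together. Of 169 named genes 147 kept direction and call under every alternative, and none turned direction among those called. Of the 2535 values of named genes under the alternatives, 16 lost and 21 gained a call, many under a changed fold limit and others under other settings. Robust estimation ended the calls of Muc5b (3.81) and Aqp3 (2.97), whose Epcam+ libraries scatter widely, and the cause was not tested. Subtracting the other fraction's RNA moved 139 of 169 named genes by over 1.5 times, left Cxcl15 (3.35) and Aqp3 (6.75) without a call, and gave calls to Hbegf (1.21), Erbb2 (1.05), Tgfbr1 (1.87) and Tgfbr2 (1.11). Since the share was estimated from reference genes, it brings these near 0 by construction. The share of fibroblast RNA in Epcam+ libraries was 4.94% to 6.71% and that of epithelial RNA in CCL206 libraries 16.2% to 23.7% with each mouse left out. With 3 pairs and a spread borrowed from other genes, p-values are small beside the scatter of single genes.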
